A study of Mus musculus with 15 samples.

Results

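Acid handling by the mouse kidney was followed through 9 genes: Atp6v1b1, Atp6v0d2 and Atp6v0a4 of the proton pump, the bicarbonate transporters Slc4a1, Slc26a4 and Slc4a4, the transcription factor Foxi1, and the ammonia genes Glud1 and Slc38a3. They were chosen by symbol, and all 9 were measured among the 16055 genes tested on the arrays. Kidney RNA came from 15 male C57/BJ mice, 1 array per mouse, operated on at 6 weeks of age and killed 20 weeks later. The groups were LFD-sham (low fat, a control chow, with sham surgery, 4 arrays), LFD-UNX (low fat with removal of the left kidney, uninephrectomy, 4 arrays), HFD-sham (high fat with sham surgery, 3 arrays) and HFD-UNX (high fat with uninephrectomy, 4 arrays). The labels state 6 mice per group and number the mice, so the arrays were treated as separate animals. The mice carried no engineered allele per the labels, and the comparisons ask what the fatty diet, the loss of a kidney, and the combination changed.

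The body's daily acid load is cleared by the kidney along separate routes. Proximal tubule cells take up glutamine, break it down in mitochondria to release ammonium, and return new bicarbonate to the blood. Further along, intercalated cells of the collecting duct pump protons into the urine with a vacuolar ATPase (type A cells) or secrete bicarbonate (type B cells), and Foxi1 is the forkhead transcription factor on which their identity depends. Foxi1 is known to activate genes for intercalated cell proton pump subunits and for the anion exchangers Slc4a1 and Slc26a4.

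Promoter sequence is shown for Foxi1 and for Slc26a4, both lower in the high-fat groups. It is also shown for Atp6v1b1, a pump subunit gene known as a Foxi1 target, which did not pass the test. Each run lies just before an annotated start in RefSeq (build GRCm38.p6), 5′ to 3′ on the gene's strand, and capitals mark a forkhead core motif. The Foxi1 run is chr11:34208090-34208339 on the minus strand, the Slc26a4 run is chr12:31560056-31560234 on the minus strand, shortened to 179 bases so as to end before the outermost annotated start, and the Atp6v1b1 run is chr6:83742767-83743016 on the plus strand.
Foxi1: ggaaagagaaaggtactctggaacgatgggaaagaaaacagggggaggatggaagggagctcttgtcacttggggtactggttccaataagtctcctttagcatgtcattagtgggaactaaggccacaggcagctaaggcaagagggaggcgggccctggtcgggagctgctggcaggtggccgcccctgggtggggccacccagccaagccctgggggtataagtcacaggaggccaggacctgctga
Slc26a4: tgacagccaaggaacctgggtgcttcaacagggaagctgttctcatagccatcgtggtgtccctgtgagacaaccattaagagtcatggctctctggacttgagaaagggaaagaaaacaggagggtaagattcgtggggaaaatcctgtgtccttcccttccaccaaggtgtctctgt
Atp6v1b1: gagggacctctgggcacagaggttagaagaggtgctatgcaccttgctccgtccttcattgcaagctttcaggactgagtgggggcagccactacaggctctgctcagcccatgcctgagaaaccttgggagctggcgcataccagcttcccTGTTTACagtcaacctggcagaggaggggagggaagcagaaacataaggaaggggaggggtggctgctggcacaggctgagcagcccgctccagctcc
The letters TGTTTAC and TGTTTGT, 2 forms of the core that forkhead proteins bind, were searched on both strands in the 250 bases before each start. Of 32851 promoters in the RefSeq table, 3.17% held TGTTTAC and 5.84% held TGTTTGT, and 8.74% held either. Windows were listed for 6 of the 9 genes (7 windows, Slc4a4 having 2 starts), and TGTTTAC was found in that of Atp6v1b1 alone, at bases 98 to 92 before the start. A match describes letters in this window only.

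Of the non-control spots, 60.5% to 65.6% were well above background on the low-fat arrays and 65.7% to 73.4% on the high-fat arrays, without overlap, and none was saturated. The part of this share in the diet differences was not tested. The number of arrays limits the precision. Levels below are log2 processed signals relative to the 75th percentile of the same array. Differences are on that log2 scale, and passing means a Benjamini-Hochberg adjusted p below 0.05 over all genes in limma. The high-fat arrays were scanned on another day than the low-fat arrays and lay on other slides, so diet and scan day cannot be told apart. The high-fat arrays lay on 2 slides with both surgeries on each, and 31.0% of all genes differed between these slides at an adjusted p below 0.05. Between the diets, 1040 genes passed as higher on high fat and 1190 as lower in sham mice (46.6% of calls higher). In uninephrectomised mice 1231 passed as higher and 1047 as lower (54.0%). With normexp background correction the splits were 51 against 116 (30.5%) and 120 against 199 (37.6%).

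Among the acid-base genes, the differences that passed lay between the diet groups, which also differ in scan day and slide, and none lay between the surgery groups. In sham mice 3 of 9 passed, all lower on high fat (Foxi1, Slc26a4 and Atp6v0d2), where 13.9% of all genes passed (7.41% lower and 6.48% higher). In uninephrectomised mice 4 of 9 passed, the same 3 genes lower and Glud1 higher, against 14.2% of all genes (6.52% lower and 7.67% higher). The arrays of the 2 diets did not overlap for 4 of 9 genes in sham mice (26.2% of all genes) and for 5 of 9 in uninephrectomised mice (22.5% of all genes). The median difference over the 9 genes was -0.11 in sham mice and 0.07 in uninephrectomised mice, beside -0.02 and -0.01 over all genes. With slide as a random block 0 of 9 passed in either comparison, when 0.0872% and 0.162% of all genes did. With slide as a fixed block among the high-fat arrays only, the genes that had passed did so again, and Slc38a3 passed in both comparisons. Whether the slide or the scan day has a part in the diet differences was not tested.

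**Figure D1:**
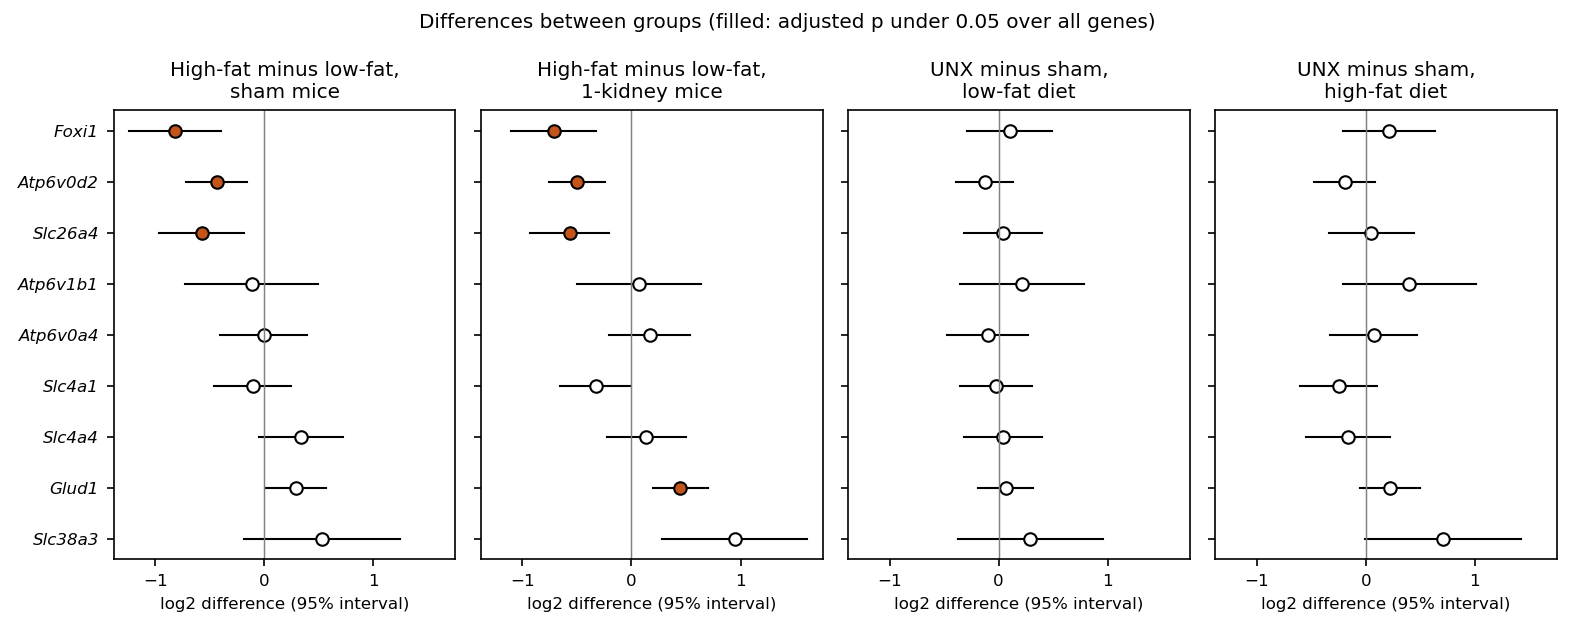
Log2 differences of the 9 acid-base genes (points, with 95% intervals as lines) for high fat minus low fat in sham and in uninephrectomised (1-kidney) mice, and for uninephrectomy minus sham on each diet. Filled points passed over all genes: Foxi1, Atp6v0d2 and Slc26a4 lie left of 0 in both diet panels, Glud1 lies right of 0 in the second, and no point is filled in the surgery panels.

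Foxi1 was lower on the high-fat diet in both surgical groups, by 1.76-fold in sham mice and 1.64-fold in uninephrectomised mice. Its level was 1.79, 1.81, 2.16 and 2.25 on the LFD-sham arrays (mean 2.00 ± 0.23 SD, n = 4) and 1.34, 1.07 and 1.15 on the HFD-sham arrays (1.18 ± 0.14, n = 3). After uninephrectomy it was 2.28, 1.99, 1.94 and 2.22 on low fat (2.11 ± 0.17, n = 4) and 1.23, 1.01, 1.92 and 1.41 on high fat (1.39 ± 0.39, n = 4). Every high-fat array lay below every low-fat array of the same surgery, although the third HFD-UNX array, at 1.92, lay just under the lowest LFD-UNX array, at 1.94. The log2 difference was -0.82 (SE 0.20, limma adjusted p = 0.0162) in sham mice and -0.71 (SE 0.18, limma adjusted p = 0.0201) in uninephrectomised mice. Adjusted p was 0.223 and 0.339 with slide as a random block. Leaving out HFD-sham replicate 2 ended the call in sham mice (-0.76, adjusted p = 0.0596). In uninephrectomised mice leaving out LFD-UNX replicate 1 or 4 or HFD-UNX replicate 1 or 2 did so, at adjusted p of 0.0564 to 0.0630. Without the high-fat arrays of slide 1 the Foxi1 difference in uninephrectomised mice was -0.44 (adjusted p = 0.137).

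Slc26a4, or pendrin, is the apical chloride-bicarbonate exchanger of the bicarbonate-secreting intercalated cells, and it was lower on high fat by 1.49-fold and 1.48-fold. The LFD-sham arrays read 3.43, 3.53, 3.82 and 3.72 (mean 3.63 ± 0.17 SD, n = 4) and the HFD-sham arrays 3.27, 2.88 and 3.01 (3.05 ± 0.20, n = 3). The LFD-UNX arrays read 3.41, 4.06, 3.49 and 3.71 (3.67 ± 0.29, n = 4) and the HFD-UNX arrays 2.89, 2.96, 3.45 and 3.103 (3.1005 ± 0.25, n = 4). The sham groups did not overlap, whereas the third HFD-UNX array lay above the lowest LFD-UNX array. The difference was -0.57 (SE 0.18, limma adjusted p = 0.0498) in sham mice and -0.57 (SE 0.17, adjusted p = 0.0382) in uninephrectomised mice. The sham value sits at the threshold, since adjusted p was 0.0621 after quantile normalization and 0.0501 in the deposited value table. Leaving out any 1 array of the comparison other than HFD-sham replicate 1 ended that call (adjusted p 0.0601 to 0.159). In uninephrectomised mice every single array other than LFD-UNX replicate 1 and HFD-UNX replicate 3 did so for Slc26a4 (0.0528 to 0.108). Without the high-fat arrays of slide 1 the difference in uninephrectomised mice was -0.39 (limma adjusted p = 0.192). Without those of slide 2 the sham difference was -0.36. With normexp background correction Slc26a4 gave -0.54 (adjusted p = 0.201) in sham mice and -0.32 (0.481) in uninephrectomised mice. Its adjusted p rose to 0.368 and 0.429 when slide was a random block.

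Slc4a1, the anion exchanger that returns bicarbonate to the blood across the basolateral membrane of type A cells, did not pass in any comparison over all 15 arrays with equal weight. It is also the main anion exchanger of red cells, so whole-kidney RNA can hold both sources. Its level ran from 0.85 to 1.23 on LFD-sham (mean 0.97 ± 0.18 SD, n = 4), 0.67 to 1.30 on LFD-UNX (0.94 ± 0.26, n = 4) and 0.55 to 1.12 on HFD-sham (0.86 ± 0.29, n = 3). The HFD-UNX arrays read 0.60, 0.59, 0.63 and 0.62, a narrow band below all 4 LFD-UNX arrays. The difference in uninephrectomised mice was -0.33 (SE 0.15, limma adjusted p = 0.167), with a 95% interval from -0.66 to -0.00. In sham mice it was -0.11 (SE 0.17, adjusted p = 0.709). With array weights the Slc4a1 difference in uninephrectomised mice was also -0.33 and passed (adjusted p = 0.0483). Of 9 red blood cell markers tested, 0 passed in sham mice in limma (0 also at an unadjusted p below 0.05, beside 30.2% of all genes). In uninephrectomised mice 1 passed, the globin gene Hbb-bt at -0.56 (limma adjusted p = 0.0266), beside 14.2% of all genes. The log2 summed red-cell signal ran from 9.14 to 9.46 on LFD-sham, 8.94 to 9.29 on LFD-UNX, 8.73 to 9.92 on HFD-sham and 8.998 to 9.48 on HFD-UNX. The part of red cells in the Slc4a1 values was not tested.

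The vacuolar ATPase has a peripheral domain that splits ATP and a membrane domain that moves protons, and 3 of the 9 genes encode subunits of the form found in intercalated cells. Of these, only Atp6v0d2 passed in the diet comparisons. Atp6v0d2, a membrane-domain subunit that osteoclasts and macrophages also make, was lower on high fat by 1.35-fold in sham mice and 1.42-fold in uninephrectomised mice. It read -0.53, -0.39, -0.35 and -0.20 on LFD-sham (mean -0.37 ± 0.14 SD, n = 4) and -0.77, -1.0003 and -0.63 on HFD-sham (-0.80 ± 0.19, n = 3). After uninephrectomy it read -0.57, -0.39, -0.54 and -0.49 on low fat (-0.49 ± 0.08, n = 4) and -1.24, -0.90, -0.95 and -0.91 on high fat (-0.996 ± 0.16, n = 4). High-fat and low-fat arrays did not overlap within either surgery. The difference was -0.43 (SE 0.13, limma adjusted p = 0.0413) and -0.50 (SE 0.12, adjusted p = 0.0153), with adjusted p of 0.329 and 0.308 when slide was a random block.

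In uninephrectomised mice the Atp6v0d2 call held when each of the 8 arrays was left out in turn. In sham mice it was lost without LFD-sham replicate 2, 3 or 4 or HFD-sham replicate 1 or 2 (adjusted p 0.0630 to 0.155). A second Atp6v0d2 probe, detected on 15 of 15 arrays, gave -0.16 and -0.14, smaller in size than the differences of the probe used, and the mean of both probes gave -0.30 (adjusted p = 0.272) and -0.32 (0.197). The second probe split by slide within the high-fat diet. It read -2.54, -2.82 and -2.45 on the high-fat arrays of slide 1 and -2.18, -1.65, -2.19 and -1.64 on those of slide 2. Its low-fat arrays read -2.32 to -1.86, so it was lower than all of them on slide 1 only. None of 11 macrophage and osteoclast markers passed for diet in limma (1 and 4 at an unadjusted p below 0.05, beside 30.2% and 29.7% of all genes). Their log2 summed signal ran from 5.40 to 5.62 on LFD-sham, 5.41 to 5.64 on LFD-UNX, 4.94 to 5.23 on HFD-sham and 5.05 to 5.54 on HFD-UNX. The sham groups did not overlap in that sum, in which the bright Acp5 and Csf1r weigh most. Acp5 had a mean of 4.70 on LFD-sham and 4.16 on HFD-sham, and Csf1r 3.48 and 3.17. Of the 11 markers, 4 were higher and 7 lower on high fat in sham mice, and 8 higher and 3 lower in uninephrectomised mice. The part of these cells in the Atp6v0d2 difference was not tested.

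Atp6v1b1, the peripheral-domain subunit particular to specialised proton-secreting cells and mutated in inherited distal renal tubular acidosis with deafness, overlapped between diets. It read -0.35, 0.12, 0.21 and 0.18 on LFD-sham and 0.35, -0.07 and -0.51 on HFD-sham. The LFD-UNX arrays read 0.09, 0.66, -0.07 and 0.34 and the HFD-UNX arrays 0.18, 1.12, -0.05 and 0.03. The high-fat arrays were the more scattered, from -0.51 to 1.12. The difference was -0.12 (95% interval -0.72 to 0.49, limma adjusted p = 0.828) in sham mice and 0.07 (-0.49 to 0.63, 0.889) in uninephrectomised mice.

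Atp6v0a4, the membrane-domain subunit mutated in another form of distal renal tubular acidosis, was even across 3 of the groups. It read 4.04, 4.17, 3.93 and 3.94 on LFD-sham, 3.91, 3.95, 3.86 and 3.96 on LFD-UNX and 4.06, 4.06 and 3.94 on HFD-sham. The HFD-UNX arrays split into 3.60 and 3.83 on slide 1 and 4.46 and 4.48 on slide 2. The difference was -0.00 (95% interval -0.40 to 0.40, limma adjusted p = 0.990) in sham mice and 0.17 (-0.20 to 0.54, 0.551) in uninephrectomised mice. In uninephrectomised mice Atp6v0a4 gave 0.55 (adjusted p = 0.00583) without the high-fat arrays of slide 1 and -0.21 without those of slide 2.

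**Figure D2:**
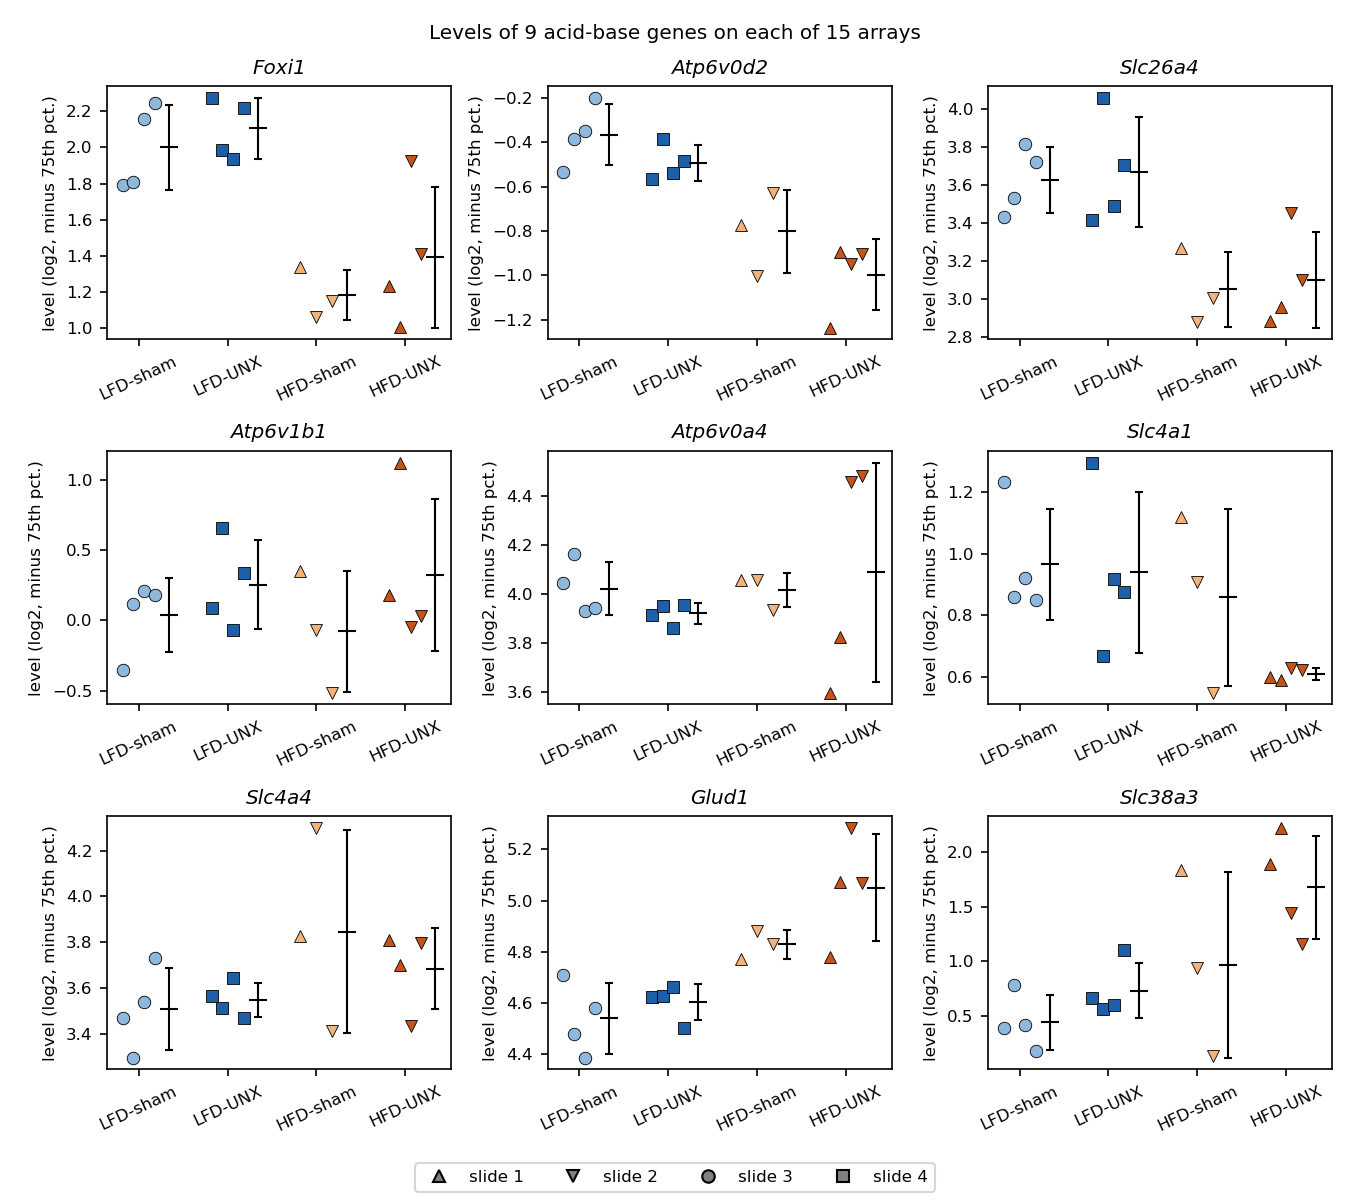
Level of each of the 9 genes (log2 signal minus the 75th percentile of the array) on every array, by group, with the marker shape giving the array slide. Foxi1, Slc26a4 and Atp6v0d2 sit lower in the HFD groups, Glud1 sits higher in HFD-UNX, and the HFD-UNX arrays of Atp6v0a4 fall into a pair near 3.60 to 3.83 and a pair near 4.46 to 4.48.

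Among 22 other subunits and accessory proteins of the pump, 2 passed as higher and 1 as lower in each diet comparison. That share was near the 13.9% and 14.2% of all genes, and it counts Atp6v1e2, whose call supports nothing for the reason given below. The medians were 0.12 in sham mice and 0.15 in uninephrectomised mice. Atp6v1c2, a peripheral subunit of intercalated cells, was lower: it ran from 0.99 to 1.16 on LFD-sham against 0.56 to 0.77 on HFD-sham, and from 0.99 to 1.34 on LFD-UNX against 0.67 to 0.86 on HFD-UNX. Its difference was -0.38 in both (SE 0.11, limma adjusted p = 0.0400 and 0.0278). Atp6v0b, a widely expressed subunit of the membrane ring, was higher by 0.76 (SE 0.22, adjusted p = 0.0334) and 0.64 (SE 0.20, 0.0473). Its 3 high-fat arrays of slide 1 read 4.27 to 4.50 and its 4 of slide 2 read 3.60 to 3.89, and without the slide 1 arrays the difference in uninephrectomised mice was 0.34 (adjusted p = 0.138). Atp6v1e2, described mainly from testis, was not well above background on any low-fat array. It was well above background on all 7 high-fat arrays, where it was at least 1.63-fold higher in sham mice and at least 2.15-fold higher in uninephrectomised mice. Atp6v1e2 met the filter on dim probes only through the high-fat arrays, so its call supports nothing and its p is left out. These bounds set the mean of the high-fat arrays against a floor, the lowest signal of a spot well above background or the probe's own signal where higher. With normexp background correction the Atp6v1e2 log2 difference was -0.0367 in sham mice and 0.39 in uninephrectomised mice, so these bounds depend on the background correction. The Atp6v1c2 call was lost without any 1 array other than HFD-sham replicate 1 (adjusted p 0.0585 to 0.106) or, in uninephrectomised mice, LFD-UNX replicate 3 or HFD-UNX replicate 3 (0.0520 to 0.0858). That of Atp6v0b was lost without any other than LFD-sham replicate 4 or HFD-sham replicate 3 (0.0656 to 0.116) or HFD-UNX replicate 3 (0.0519 to 0.138). When slide was a random block, adjusted p was 0.331 and 0.361 for Atp6v1c2 and 0.165 and 0.305 for Atp6v0b.

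Slc4a4, the sodium-bicarbonate cotransporter that carries bicarbonate from proximal tubule cells to the blood, did not pass. It read 3.47, 3.30, 3.54 and 3.73 on LFD-sham (mean 3.51 ± 0.18 SD, n = 4), 3.57, 3.51, 3.64 and 3.47 on LFD-UNX (3.55 ± 0.08, n = 4), 3.83, 4.30 and 3.41 on HFD-sham (3.85 ± 0.44, n = 3) and 3.81, 3.70, 3.43 and 3.80 on HFD-UNX (3.69 ± 0.17, n = 4). All groups overlapped. The diet difference was 0.34 (95% interval -0.05 to 0.72, limma adjusted p = 0.230) in sham mice and 0.14 (-0.22 to 0.50, 0.621) in uninephrectomised mice. Leaving out HFD-sham replicate 3 gave 0.55 (adjusted p = 0.0408) for Slc4a4 in sham mice, and array weights gave 0.64 (0.00749).

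A second Slc4a4 probe (A_55_P1959228) gave 0.24 and 0.14 for diet, whereas the remaining probe (A_52_P457567) behaved differently. That probe was well above background on 6 of 15 arrays and on 0 of 8 low-fat arrays, where it read -7.97 to -6.18. It read -6.07, -5.57 and -5.58 on the high-fat arrays of slide 1 and -1.92, -1.32, -1.24 and -0.86 on those of slide 2. The signal of this probe thus followed the slide within one diet, with both surgeries on each slide. Averaging the 3 probes gave a diet difference of 1.51 in sham mice and 1.36 in uninephrectomised mice, which rests on that probe. The probe A_52_P457567 met the filter on dim probes only through the high-fat arrays, so this average supports nothing and its p is left out.

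**Figure D3:**
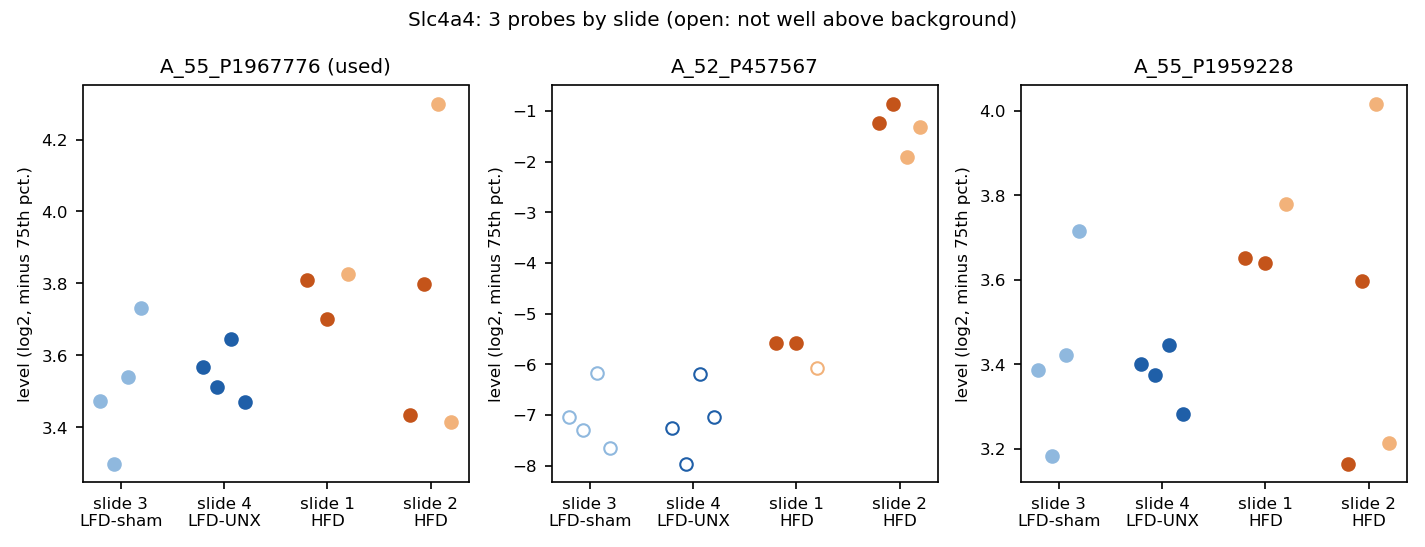
Levels of the 3 Slc4a4 probes (log2 signal minus the 75th percentile of the array) on each array, arranged by slide, with light points for sham, dark points for uninephrectomised mice, and open points not well above background. The used probe and A_55_P1959228 each overlap between all pairs of slides except slides 1 and 4. The probe A_52_P457567 reads -1.92 to -0.86 on slide 2 and -5.57 or below on every other array.

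Both ammonia genes had higher means on high fat, and 1 of them passed. Glud1, the mitochondrial glutamate dehydrogenase that frees the second ammonium of glutamine, was higher on high fat in uninephrectomised mice by 1.37-fold. It read 4.62, 4.63, 4.66 and 4.50 on LFD-UNX (mean 4.60 ± 0.07 SD, n = 4) and 4.78, 5.07, 5.29 and 5.07 on HFD-UNX (5.05 ± 0.21, n = 4), with no overlap. In sham mice it read 4.71, 4.48, 4.38 and 4.58 on low fat (4.54 ± 0.14, n = 4) and 4.77, 4.88 and 4.83 on high fat (4.83 ± 0.06, n = 3), also with no overlap. The difference was 0.45 (SE 0.12, limma adjusted p = 0.0237) in uninephrectomised mice and 0.29 (SE 0.13, adjusted p = 0.145) in sham mice, which did not pass. These became 0.324 and 0.528 when slide was a random block. The call was lost without LFD-UNX replicate 1 or 4 or HFD-UNX replicate 2, at adjusted p of 0.0547 to 0.0750. A second Glud1 probe gave 0.35 in uninephrectomised mice and 0.02 in sham mice.

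Slc38a3, the glutamine transporter of the basolateral membrane of proximal tubule cells, had the largest diet difference of the 9 genes in uninephrectomised mice and did not pass. It read 0.66, 0.56, 0.59 and 1.10 on LFD-UNX (mean 0.73 ± 0.25 SD, n = 4) and 1.89, 2.22, 1.44 and 1.16 on HFD-UNX (1.68 ± 0.47, n = 4), without overlap. In sham mice it read 0.38, 0.78, 0.42 and 0.18 on low fat (0.44 ± 0.25, n = 4) and 1.83, 0.94 and 0.13 on high fat (0.97 ± 0.85, n = 3), with the HFD-sham arrays reaching both above and below the LFD-sham arrays. The difference was 0.95 (SE 0.31, 1.93-fold, limma adjusted p = 0.0552) in uninephrectomised mice and 0.53 (SE 0.33, adjusted p = 0.312) in sham mice. With slide as a fixed block among the high-fat arrays Slc38a3 passed in both (adjusted p = 0.00544 and 0.0346), and with slide as a random block in neither (0.354 and 0.496). Without the high-fat arrays of slide 1 the difference was 0.57 (adjusted p = 0.146) and 0.09 (0.811), and without those of slide 2 it was 1.33 (0.000849) and 1.40 (0.00456).

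Of 20 other genes of glutamine uptake and breakdown, 1 passed as higher in each diet comparison and 1 passed as lower in uninephrectomised mice, with medians of 0.00 and -0.05. Over all genes 13.9% passed in sham mice and 14.2% in uninephrectomised mice. Pck1, the phosphoenolpyruvate carboxykinase that draws off the carbon left by glutamine breakdown and makes glucose, was the higher gene. Pck1 read 6.50 to 6.64 on LFD-sham and 6.82 to 7.61 on HFD-sham, and 6.52 to 6.71 on LFD-UNX and 7.34 to 7.93 on HFD-UNX, without overlap. Its difference was 0.71 (SE 0.18, limma adjusted p = 0.0204) in sham mice and 1.09 (SE 0.17, 2.13-fold, adjusted p = 0.00158) in uninephrectomised mice. Leaving out HFD-sham replicate 1 or 2 ended the Pck1 call in sham mice (adjusted p = 0.0678 and 0.0761), and no single array ended it in uninephrectomised mice. Neither Pck1 call held when slide was a random block (0.201 and 0.0929), and the sham call was lost with normexp (0.113). Gls2, the liver-type glutaminase, was well above background on 3 of 4 arrays in each uninephrectomised group and passed as lower on high fat (-1.67, adjusted p = 0.0370). Gls2 read -5.08, -5.35, -2.76 and -3.44 on LFD-UNX and -5.71, -5.96, -5.71 and -5.95 on HFD-UNX, so that 2 of the low-fat arrays lay near the high-fat arrays. With normexp the difference was -0.48 (adjusted p = 0.877), and when slide was a random block adjusted p was 0.441. The call was also lost without LFD-UNX replicate 3 or 4 or HFD-UNX replicate 1, 2 or 4 (0.0689 to 0.110). Glul, which uses up ammonia to make glutamine, gave -0.57 (adjusted p = 0.0864) and -0.53 (0.0848), neither of which passed.

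Of 26 other genes of acid and bicarbonate transport 23 were tested, with Slc4a10, Slc26a7 and Adcy10 too dim. In sham mice 0 passed for diet in limma, and 5 had an unadjusted p below 0.05, beside 30.2% of all genes. In uninephrectomised mice 2 passed, both higher, beside 14.2% of all genes (7.67% higher). The median of the list was 0.02 in each comparison. Slc26a6, an anion exchanger of the proximal tubule brush border, gave 0.69 (SE 0.18, adjusted p = 0.0206) and read 0.36 to 0.78 on LFD-UNX and 0.95 to 1.82 on HFD-UNX. Car2, the cytosolic carbonic anhydrase that makes protons and bicarbonate in tubule cells, gave 0.52 (SE 0.16, adjusted p = 0.0447) and read 3.61 to 4.04 on LFD-UNX and 4.02 to 4.69 on HFD-UNX, with overlap. When slide was a random block adjusted p was 0.305 for Slc26a6 and 0.449 for Car2. The Slc26a6 call was lost without LFD-UNX replicate 1 or 2 (adjusted p = 0.0512 and 0.0611), and the Car2 call without any 1 array other than HFD-UNX replicate 3 (0.0559 to 0.122). Rhcg, an ammonia channel of the collecting duct, gave -0.26 (adjusted p = 0.376) in sham mice and -0.11 (0.716) in uninephrectomised mice.

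**Figure D4:**
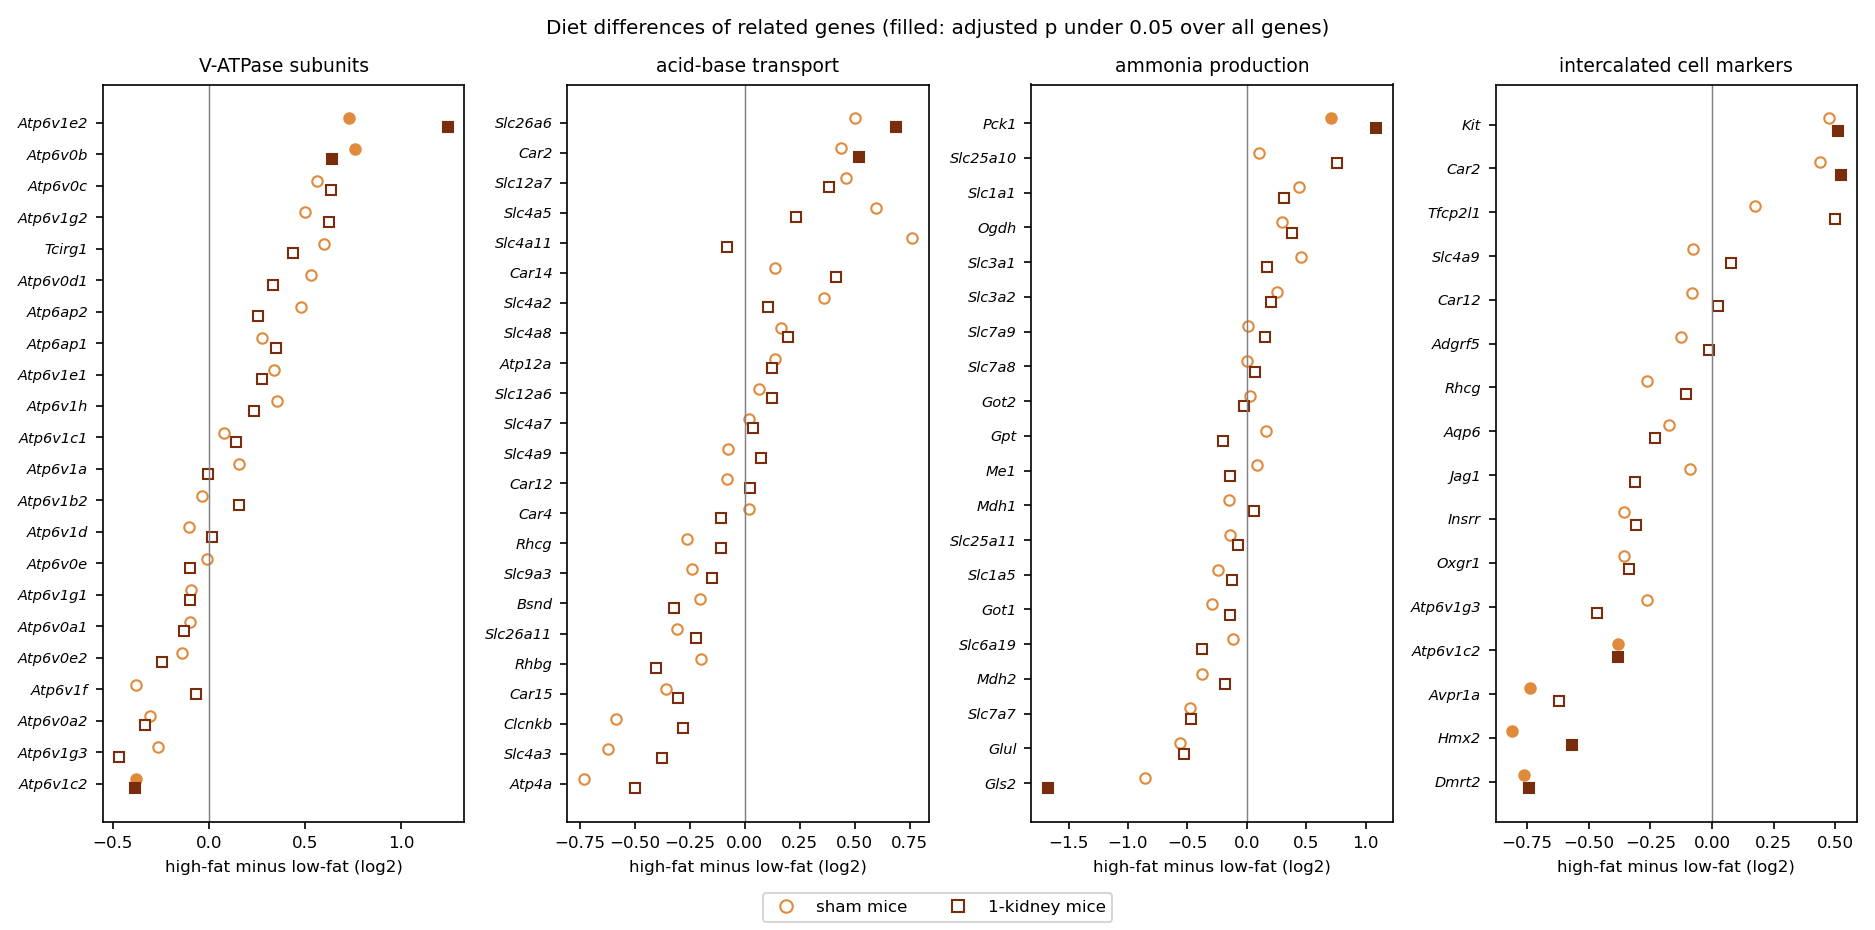
Diet differences (high fat minus low fat, log2) of related genes in sham mice (circles) and 1-kidney, uninephrectomised mice (squares), in panels for other pump subunits, acid-base transport, ammonia production and intercalated cell markers, filled where the gene passed over all genes. Pck1, Atp6v0b and Atp6v1e2 (kept by the filter only through the high-fat arrays) are filled on the right, Dmrt2, Hmx2 and Atp6v1c2 on the left in both groups of mice.

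No difference between sham and uninephrectomised mice passed for the acid-base genes. On the low-fat diet 0 of 9 passed in limma (0.00623% of all genes), and 0 had an unadjusted p below 0.05 (3.23% of all genes). On the high-fat diet 0 of 9 passed in limma (0.00% of all genes), and 0 had an unadjusted p below 0.05 (4.65% of all genes). No group pair of sham and uninephrectomised arrays was free of overlap for any of the 9, while 4.57% of all genes showed none on low fat (2.60% higher and 1.97% lower) and 2.93% on high fat (1.72% higher and 1.21% lower). The largest value was that of Slc38a3 on high fat, 0.71 (95% interval -0.01 to 1.43, unadjusted p = 0.0514, adjusted p = 0.999), which was 0.22 within slide 1 and 0.77 within slide 2. Foxi1 gave 0.10 (-0.29 to 0.49) on low fat and 0.21 (-0.21 to 0.63) on high fat, the latter -0.22 within slide 1 and 0.56 within slide 2. Within-slide values also differed in sign for Atp6v0a4 (-0.35 and 0.47) and Slc26a4 (-0.34 and 0.33), where slide 1 holds 1 HFD-sham array. The low-fat sham and uninephrectomised arrays lay on separate slides, so surgery and slide cannot be told apart there. The interaction of diet and surgery passed for 0 of 9 genes in limma, beside 0.00% of all genes. At an unadjusted p below 0.05 it was 0 of 9, beside 1.36% of all genes. The diet differences in sham and uninephrectomised mice were thus not shown to differ. The interaction was 0.42 (-0.56 to 1.39) for Slc38a3 and 0.16 (-0.22 to 0.53) for Glud1.

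Between the 2 high-fat slides, with surgery in the fit, 2 of the 9 genes differed, beside the 31.0% of all genes. Slc38a3 was higher on slide 1 by 0.97 (SE 0.22, limma adjusted p = 0.00600), with 1.83 to 2.22 on slide 1 and 0.13 to 1.44 on slide 2. Atp6v0a4 was lower on slide 1 by 0.43 on the log2 scale, a difference of -0.43 (SE 0.15, adjusted p = 0.0393). Atp6v1b1 gave 0.65 (adjusted p = 0.0512) and did not overlap between the slides. For Foxi1, Slc26a4, Atp6v0d2 and Glud1, the genes that passed for diet, the slide difference ran from -0.24 to -0.07 and did not pass. These values are of the probe used for each gene. The second Atp6v0d2 probe was lower on slide 1 than on slide 2, without overlap.

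Among intercalated cell markers, the transcription factor genes Dmrt2 and Hmx2 passed as lower on the high-fat diet in both surgical groups, whereas Tfcp2l1, another transcription factor of these cells, had higher means on high fat and did not pass. Of 16 intercalated cell markers tested, 7 of the 17 listed also standing in the pump or transport lists, 4 passed as lower and 0 as higher in sham mice, and 3 as lower and 2 as higher in uninephrectomised mice. Over all genes 7.41% passed as lower and 6.48% as higher in sham mice, and 6.52% and 7.67% in uninephrectomised mice. The medians of the markers were -0.22 and -0.27, beside -0.02 and -0.01 over all genes. Dmrt2, a transcription factor of intercalated cells, read -2.50 to -2.35 on LFD-sham and -3.27 to -3.06 on HFD-sham, and -2.78 to -2.11 on LFD-UNX and -3.31 to -2.89 on HFD-UNX. Dmrt2 gave -0.76 (SE 0.15, limma adjusted p = 0.00752) and -0.74 (SE 0.14, 0.00479), and neither call was lost when 1 array was left out. Both Dmrt2 calls were lost when slide was a random block (0.175 and 0.202) and with normexp (0.268 and 0.416). Tfcp2l1 gave 0.17 (adjusted p = 0.665) and 0.50 (0.141). Hmx2, a homeobox transcription factor, gave -0.81 (adjusted p = 0.0151) and -0.57 (0.0472), and Avpr1a, a vasopressin receptor of intercalated cells, gave -0.74 (0.0485) in sham mice. The Hmx2 call was lost without HFD-sham replicate 2 (0.0542) and, in uninephrectomised mice, without any 1 array other than HFD-UNX replicate 3 (0.0698 to 0.126). That of Avpr1a was lost without LFD-sham replicate 2, 3 or 4 or HFD-sham replicate 1 or 2 (0.0857 to 0.202). The markers that were higher in uninephrectomised mice were the receptor kinase gene Kit at 0.51 (adjusted p = 0.0430) and Car2. The Kit call was kept without LFD-UNX replicate 2 or HFD-UNX replicate 3 and lost without any other single array (0.0741 to 0.131). When slide was a random block none of these markers passed, with Hmx2 at 0.236 and 0.456, Avpr1a at 0.350 and Kit at 0.387. The log2 summed signal of the intercalated list ran from 6.29 to 6.52 on LFD-sham, 6.40 to 6.54 on LFD-UNX, 6.27 to 6.53 on HFD-sham and 6.34 to 6.80 on HFD-UNX. In whole-kidney RNA fewer cells of a type and less RNA per cell cannot be told apart.

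Markers of other kidney cells and of other tissues were counted in the same way. Over all genes 13.9% passed for diet in sham mice (7.41% lower and 6.48% higher). In uninephrectomised mice 14.2% did (6.52% lower and 7.67% higher). None of 11 principal cell markers passed in limma (3 at an unadjusted p below 0.05 in each comparison, beside 30.2% and 29.7% of all genes). Of 13 proximal tubule markers, 1 passed as higher in each comparison and 1 as lower in uninephrectomised mice, and of 9 loop and distal tubule markers 1 passed as higher in each. These were Slc13a3, a dicarboxylate transporter (0.60 in both), Slc5a12, a lactate transporter (-0.70), and Pvalb, the calcium-binding protein parvalbumin of the distal convoluted tubule (1.15 and 1.11). The mean log2 level of the proximal tubule list was between 5.12 and 5.58 on all arrays, so tubule markers of the labelled tissue were present throughout. Of 10 adipocyte markers, 3 passed as lower in sham mice, and 1 as higher and 1 as lower in uninephrectomised mice, with a log2 summed signal of 4.75 to 5.47 on LFD-sham, 4.00 to 4.77 on LFD-UNX, 3.50 to 4.47 on HFD-sham and 3.51 to 4.41 on HFD-UNX. Of 11 liver markers, 1 passed as higher in each comparison and 4 as lower in uninephrectomised mice, with sums of 5.17 to 6.51, 5.18 to 6.31, 5.11 to 5.61 and 5.65 to 5.86 in the same order. The adipocyte markers that passed were Car3, lower in sham and uninephrectomised mice (-1.64 and -1.73), Cfd (-2.90) and Adig (-0.95), lower in sham mice, and Lep, higher in uninephrectomised mice. Lep was well above background on 0 of 4 LFD-UNX arrays and 4 of 4 HFD-UNX arrays. Over both surgeries Lep reached the filter on dim probes only with the high-fat arrays, so its call supports nothing. The liver markers were Ttr, higher by 1.73 and 1.53, and Ahsg, Mup20, Mup3 and Serpina3k, lower in uninephrectomised mice. Each of these 4 was well above background on at most 1 of 4 HFD-UNX arrays. Mup3, at 0 of 3 HFD-sham and 0 of 4 HFD-UNX arrays, met the filter on dim probes only through the low-fat arrays. Ahsg and Serpina3k, on 1 array of each high-fat group, also reached it only with the low-fat arrays. The calls of Mup3, Ahsg and Serpina3k therefore support nothing. The part of the cells marked by these lists in the differences of the acid-base genes was not tested.

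For the 4 genes that passed, the genes with the most similar pattern were taken as those with the smallest root mean square difference of centred log2 values over the 15 arrays, among 16012 genes measured on every array. Foxi1 was nearest to Pgs1 (0.124), B4galt3 (0.125) and Rbm4 (0.128), against a root mean square of 0.443 for Foxi1 itself. Slc26a4 was nearest to Klkb1 (0.135), Cbr3 (0.142) and Rbm12 (0.147), and Atp6v0d2 to Bbs10 (0.0983), Kbtbd11 (0.111) and Orc6 (0.126). Glud1 was nearest to Timm44 (0.110), Gm15417 (0.118) and Sidt2 (0.124). None of these neighbours belonged to the 9 genes or to the related lists. All of these distances share the same 15 arrays and slides, and they describe likeness over these arrays.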

How the data were processed

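RNA from frozen kidney, 100 ng per mouse, received a Cy3 label and was read on Agilent 4x44K 1-colour arrays of design 026655, per the file headers and the labels' protocols. The authors extracted the intensity signals with Feature Extraction, version 10.7 in the submitters' processing notes and 10.7.3.1 in the file headers. Background had been subtracted within each array, and no normalization made across arrays, per the file headers. The deposited value table repeats these intensity signals at 0.995 to 1.005 times the processed signal, so its scale is linear and uncentred (column medians 56.7 to 251). The deposited raw spot and background signal intensities served 1 alternative.

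Probes were named through RefSeq accessions looked up in a RefSeq table (GRCm38.p6), although the design itself names mm9. Of 39429 non-control probes, 27234 matched, as 20659 symbols. Log2 processed signal minus the 75th percentile of the array over non-control probes was used, with control and outlier-marked spots left out, spots of a probe averaged, and probes kept if well above background on at least 3 arrays. The brightest probe stood for a gene, which gave 16055 genes. Groups were compared with limma 3.58.1 (R 4.3.3, lmFit and eBayes, 4 group means over all 15 arrays, two-sided), and passing meant an adjusted p (Benjamini-Hochberg) under 0.05. The fit was tested on simulated data. Alternatives changed the normalization, background correction, value table, filter, probe choice, slide block (random or fixed), replicate block, array weights, arrays in the fit and threshold, and left out each array. The 75th percentile over spots and leaving out the high-fat arrays of a slide were added after seeing the data.

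The 9 genes and the lists of related genes and cell markers were chosen with earlier results of these data known, so their counts are descriptions. Of each list, the genes that passed are named, with the 3 genes nearest in pattern to each of the 9 genes that passed. Glul and Rhcg were named for their roles after their values were seen. A gene of the ammonia production list is not reported here.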

Additional observations from a re-analysis of the deposited data

Results flagged for a closer look

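Among 27 groups of 4 arrays tested for an array far from the others, 2 were marked, and chance marks about 1 in 20 groups. The first LFD-sham array of Atp6v1b1 read -0.35, against 0.12 for the nearest array of its group, a gap of 0.835 of the group's range. The first HFD-UNX array of Atp6v0d2 read -1.24, against -0.95 for the nearest, a gap of 0.849 of the range. Atp6v0d2 still passed for diet in uninephrectomised mice without that array (-0.42, limma adjusted p = 0.0463). The Slc4a4 probe A_52_P457567, which stood for no gene in the main comparisons and entered only the mean over the 3 Slc4a4 probes, gave a mean of -5.74 on the high-fat arrays of slide 1 and -1.33 on those of slide 2. Both lay above the highest low-fat array, at -6.18.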

How the results depend on the processing

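With 3 or 4 arrays per group, and with diet and scan day inseparable, the counts depended on the fit. In sham mice, 3 of the 9 genes passed for diet, but 0 with normexp background correction, 0 with slide as a random block, 1 with only the 2 groups compared, 1 with the replicate number as a block and 5 with array weights (Slc4a4 and Glud1 added), and 0 to 3 with 1 array left out. In uninephrectomised mice, 4 passed, but 0 with normexp, 0 with slide as a random block, 2 with only the 2 groups compared (Slc38a3, which is not one of the 4, and Atp6v0d2) and 6 with array weights (Slc4a1 and Slc38a3 added), and 1 to 4 with 1 array left out. Without HFD-sham replicate 2 the count was 0 in sham mice, and without LFD-UNX replicate 4 or HFD-UNX replicate 2 it was 1 in uninephrectomised mice. With slide as a fixed block among the high-fat arrays, the 3 genes and Slc38a3 passed in sham mice (limma adjusted p 0.00645 to 0.0346). In uninephrectomised mice the 4 genes and Slc38a3 did (0.00544 to 0.0257). That block covers the difference between the high-fat slides only, and diet and scan day stay inseparable in it. Arrays of the same replicate number correlated at -0.15 to 0.43 in their deviations from the group means, and arrays of different number at -0.46 to 0.42. The highest value of each kind came from arrays sharing a high-fat slide. The replicate numbers were not taken as pairs. For surgery and the interaction, 0 of the 9 passed under every alternative run. Atp6v1e2 and Gls2 have no value under the filter for all arrays. Why these settings matter was not tested.

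Every change of sign but 1 was of a difference that had not passed. The exception was Atp6v1e2 for diet in sham mice, at -0.0367 with normexp. For diet in sham mice, Atp6v0a4 gave 0.0483 with quantile normalization, 0.0812 with cyclic loess, 0.0341 with the replicate block, 0.0335 with array weights, 0.00878 with the percentile over spots and 0.0343 without slide 2 (the high-fat arrays of it), where Atp6v1b1 gave 0.31 and Slc4a1 0.15. In uninephrectomised mice, Atp6v1b1 gave -0.26 without slide 1, and Atp6v0a4 gave -0.13 with array weights and -0.21 without slide 2, against 0.55 (adjusted p = 0.00583, passing) without slide 1. For surgery on low fat, Slc4a4 gave -0.0298 as a mean over probes, and Slc26a4 gave -0.16 with normexp and -0.0342 with array weights. For surgery on high fat, Atp6v0a4 gave -0.0194 with quantile normalization, -0.25 with array weights and -0.35 without slide 2, Slc26a4 gave -0.0214 with quantile normalization and -0.34 without slide 2, and Foxi1 gave -0.22 without slide 2. For the interaction, Slc26a4 gave -0.0484 with quantile normalization, -0.0312 with cyclic loess, -0.00724 with the replicate block and -0.39 without slide 2. Foxi1 gave -0.0490 with normexp and -0.32 without slide 2, Atp6v0a4 -0.16 with array weights and -0.24 without slide 2, Atp6v0d2 0.00233 with array weights and 0.0171 without slide 1, Glud1 -0.0388 with array weights and Slc38a3 -0.0696 without slide 2.

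With 1 array left out, the differences that changed sign ranged as follows. For diet, Atp6v1b1 ran from -0.33 to 0.10 in sham mice and -0.20 to 0.20 in uninephrectomised mice, and in sham mice Atp6v0a4 from -0.0344 to 0.0431 and Slc4a1 from -0.24 to 0.0479. For surgery on low fat, Slc4a1 ran from -0.15 to 0.0646, Slc4a4 from -0.0333 to 0.11 and Slc26a4 from -0.0895 to 0.13. For surgery on high fat, Atp6v0a4 ran from -0.0568 to 0.24, Slc4a4 from -0.38 to 0.0652 and Slc26a4 from -0.0680 to 0.16. For the interaction, Atp6v1b1 ran from -0.0817 to 0.40, Atp6v0d2 from -0.17 to 0.0174, Slc4a4 from -0.42 to 0.0276, Slc26a4 from -0.11 to 0.14 and Foxi1 from -0.0705 to 0.23.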
